A study of Mus musculus with 2 samples.

Results

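LβT2 cells, an immortalised mouse gonadotrope line, were examined under vehicle for Btg2 transcript that was present without GnRH. The cells described here are the 89 vehicle-treated cells with 3 or more unique molecular identifiers (UMIs) of Btg2, out of 1992 vehicle-treated cells (4.47%, exact binomial 95% interval 3.60 to 5.47) and 3881 cells in the single-cell experiment. They were set against the 1358 vehicle-treated cells (68.2%) in which no Btg2 UMI was counted, and the 545 cells between, with 1 or 2, served to show whether a pattern was graded. Because the cells were selected on their Btg2 count, Btg2 itself is a description of the choice, and so is every other gene measured in the same cells.

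Both groups came from a single culture that received vehicle for 40 min, in the setting in which a parallel culture received 2 nM GnRH for 40 min. The cells were grown in DMEM with fetal bovine serum, so both groups were exposed to the growth factors of serum, and were detached with trypsin before droplet capture (10x Genomics 3′ chemistry), in which each UMI marks 1 captured transcript. The line was derived from a pituitary tumour driven by an LHβ-promoter T antigen transgene, and T antigen binds p53 and the retinoblastoma protein, so cell cycle and p53-linked genes are measured here against that background. There was 1 vehicle library and 1 GnRH library. No comparison here therefore has a replicate check, no test was run and no p-value is given. Intervals are 95% counting intervals, which are narrower than the real uncertainty because cells differ by more than counting error.

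Btg2 belongs to the BTG/TOB family of antiproliferative proteins. It binds the CCR4-NOT deadenylase, which shortens the poly(A) tails of messenger RNAs, and it is known both as an early response gene and as a target of p53. In gonadotropes its transcript is raised by GnRH, the hypothalamic peptide that drives gonadotropin secretion.

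The table analysed here held 1068 genes, and all 1062 that could be placed lie on chromosome 1. Levels are therefore given as CPM, the UMIs of a gene scaled to the summed UMIs of these genes with Btg2 left out, and are not levels in the whole transcriptome. Of the 1068, 603 had a UMI in either group, and 303 had at least 20 UMIs expected in the 89 cells from the pooled rate and were compared. Gonadotrope lineage transcripts were abundant in both groups. Summed Scg2, Inha and Inhbb stood at 72045 CPM in the 89 cells and 76245 CPM in the cells without Btg2. The defining fibroblast genes Col3a1 and Col5a2 were at 0 in both groups and Col6a3 had 1 UMI, in a cell without Btg2, while the fourth gene of that list, Fn1, differed between the groups and is described with the other genes. The 4 immune markers analysed summed to 0 and 1 UMI, and the 4 muscle markers to 3 and 25 UMIs. The library held only this line, so there were no cells free of Btg2 expression in which to count UMIs from free RNA, and the part of the Btg2 UMIs that such RNA gave is not known.

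The start of Btg2 (chromosome 1, 134075170 to 134079120, minus strand, GRCm38, with no overlapping annotated gene) is shown beside those of Coq10b, a gene raised by GnRH in the same experiment that did not accompany Btg2 under vehicle, and Stk17b, a gene that did. Each is the RefSeq promoter window of 250 bases before to 50 after the start (GRCm38.p6), read 5′ to 3′ on the strand of the gene, and capitals mark the cyclic AMP response element TGACGTCA and its core TGACG on either strand, both of whose orientations lie in the full element.
Btg2, chr1:134079106-134079405, minus: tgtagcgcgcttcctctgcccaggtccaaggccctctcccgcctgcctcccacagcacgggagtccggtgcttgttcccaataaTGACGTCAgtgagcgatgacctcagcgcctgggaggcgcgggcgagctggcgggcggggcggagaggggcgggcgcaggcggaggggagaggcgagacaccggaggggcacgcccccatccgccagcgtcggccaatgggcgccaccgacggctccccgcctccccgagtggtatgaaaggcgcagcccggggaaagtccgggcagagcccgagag
Coq10b, chr1:55052520-55052819, plus: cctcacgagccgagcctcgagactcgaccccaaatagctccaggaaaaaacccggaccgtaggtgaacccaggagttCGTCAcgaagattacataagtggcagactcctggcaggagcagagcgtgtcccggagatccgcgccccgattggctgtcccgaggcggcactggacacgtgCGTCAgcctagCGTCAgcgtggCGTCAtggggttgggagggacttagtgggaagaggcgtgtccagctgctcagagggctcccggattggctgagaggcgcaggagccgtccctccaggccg
Stk17b, chr1:53785166-53785465, minus: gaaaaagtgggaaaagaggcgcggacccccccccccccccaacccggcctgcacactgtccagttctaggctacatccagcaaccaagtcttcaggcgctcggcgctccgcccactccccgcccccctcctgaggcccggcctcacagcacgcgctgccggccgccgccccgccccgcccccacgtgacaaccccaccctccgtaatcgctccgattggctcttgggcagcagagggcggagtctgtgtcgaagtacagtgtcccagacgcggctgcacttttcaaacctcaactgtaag
The Btg2 window held 1 full element, which began at position -166 and which 507 of 27025 mouse promoter windows (1.88%) also held. The Coq10b window held 4 cores and no full element, against 21.02% of all windows with at least 1 core, and the Stk17b window held neither. A letter match describes the window and is not evidence of binding.

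Btg2 was sparse and unequal in the vehicle library. Its 1049 UMIs amounted to 932 CPM, against 30878 CPM in the GnRH library, where 1627 of 1889 cells (86.1%) reached 3 UMIs. Of the 89 vehicle cells, 48 had 3 UMIs, 21 had 4, 7 had 5, 4 had 6 and 5 had 7, and 1 cell each had 8, 10, 11 and 14. These 4.47% of the cells held 34.8% of the Btg2 UMIs of the library. If every cell had expressed Btg2 at the mean rate for its depth, counting alone would have placed 43.0 cells at 3 or more, 7.56 at 4 or more and 1.19 at 5 or more, where 89, 41 and 20 were counted. At 1 or more, 634 cells were counted where 789 were expected, and at 2 or more 228 where 208 were. The observed number was thus below the counting expectation at 1 or more and above it at the other limits. The mean rate was taken from these same counts, and part of the 89 cells is what counting alone would give.

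**Figure D1:**
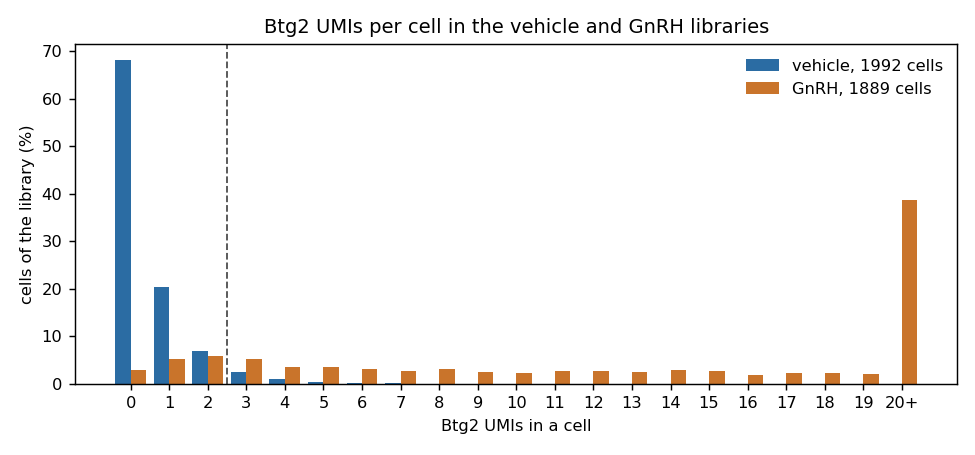
Btg2 UMIs per cell (x axis, 20 and above pooled) against the share of cells of each library in percent (y axis), for 1992 vehicle and 1889 GnRH cells. The dashed line marks the limit of 3 UMIs, past which lie 4.47% of the vehicle and 86.1% of the GnRH cells.

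The limit at 3 UMIs divided cells of like depth. The 139 cells just outside it, with 2 Btg2 UMIs, had a median of 686 UMIs of other genes, and the 48 cells just inside it had 617. The 89 cells as a group were deeper than the cells without Btg2, with a median of 657 UMIs (quartiles 558 and 884) from 181 genes against 509 UMIs (400 and 642) from 154 genes. Depth was therefore handled in 3 ways: by CPM, by setting the 89 cells against 356 cells without Btg2 that were matched on depth (median 657.5 UMIs), and by thinning each cell to 300 UMIs, which kept 87 and 1172 cells.

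The 89 cells had higher levels of Mdm4, the close relative of Mdm2 that holds p53 inactive, and of Sgol2a, a shugoshin that protects cohesin at centromeres, each at over 2-fold the level of the cells without Btg2. Of 303 genes compared, 13 were at least 1.5-fold higher (4.29% of those compared) and 6 at least 1.5-fold lower (1.98%), and 284 lay within 1.5-fold. The median log2 ratio over all 303 was -0.0045, with quartiles of -0.18 and 0.19, and 148 genes were above 0 and 155 below. Scaling both groups to the same total largely sets this centre. Of the 19 genes, Sgol2a, Mdm4, Stk17b and Slc39a10 stayed past 1.5-fold under every alternative that gave them a ratio. For Slc39a10 this rested on 10 UMIs in the 89 cells. Each of the others came within 1.5-fold under at least 1 alternative.

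**Figure D2:**
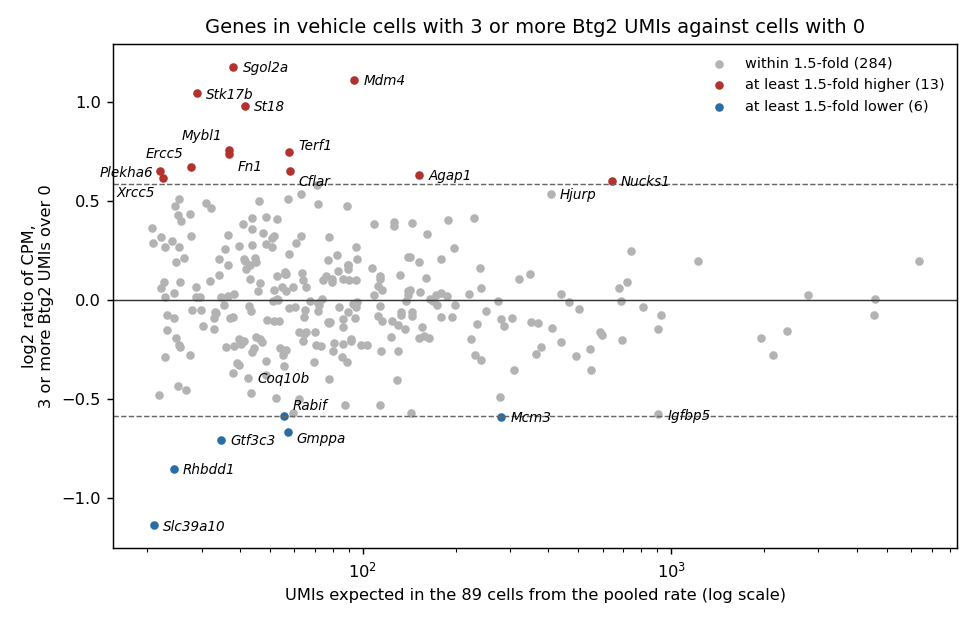
Log2 ratio of CPM in the 89 cells over the 1358 cells without Btg2 (y axis) against the UMIs expected in the 89 cells (x axis, log scale), 1 point per gene for 303 genes. Dashed lines mark 1.5-fold, past which lie 13 genes above and 6 below, and the scatter widens toward low counts.

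Sgol2a had 78 UMIs in 46 of the 89 cells and 380 UMIs in 275 of the 1358 cells without Btg2. Its level was 1207 CPM (954 to 1507) against 533 CPM (481 to 590), a log2 ratio of 1.18 (0.81 to 1.53). The intervals of the 2 levels lay far apart, and no single cell gave more than 8.97% of the UMIs in the 89 cells. Its span (chromosome 1, 57995971 to 58025899) overlaps Kctd18 on the opposite strand, and how counting used strand is not given in the sources used here.

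Mdm4 had 185 UMIs in 65 of the 89 cells and 943 in 622 of the cells without Btg2. That was 2863 CPM (2466 to 3307) against 1323 CPM (1240 to 1410), a log2 ratio of 1.11 (0.88 to 1.34). Against depth-matched cells the ratio was 1.07 (0.80 to 1.33), nearly the same, whereas that of Sgol2a was smaller at 0.91 (0.50 to 1.31). Mdm4 (chromosome 1, 132959484 to 133030561, minus strand) overlaps the annotated gene Gm29257 on the opposite strand.

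Both genes were spread through the 89 cells. A UMI of each was found in 35 cells, of Sgol2a alone in 11, of Mdm4 alone in 30 and of neither in 13 (14.6%). Among cells without Btg2, 167 of 1358 had both and 628 (46.2%) had neither. The cells with both were the deeper ones in either group (median 800 and 677 UMIs), so these shares are not corrected for depth. After thinning to 300 UMIs, Mdm4 was found in 48.3% of the 87 cells kept (37.4 to 59.2) and in 31.4% (28.7 to 34.1) of the cells without Btg2, and Sgol2a in 26.4% (17.6 to 37.0) and 13.1% (11.2 to 15.1).

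A kinase and a transcription factor stood close to these. Stk17b, a serine/threonine kinase of the death-associated family, was at 851 CPM (641 to 1108) against 413 CPM (367 to 462), a log2 ratio of 1.05 (0.60 to 1.46), with 55 and 294 UMIs. Its depth-matched ratio was 0.90 (0.41 to 1.38), and after thinning it was found in 17.2% (9.98 to 26.8) against 9.64% (8.01 to 11.5) of cells, intervals that overlap. In the ranges of under 500, 500 to under 800 and 800 or more UMIs its ratio was 1.33 (-0.03 to 2.43), 0.78 (-0.10 to 1.55) and 0.72 (0.07 to 1.34), so that 2 of the 3 intervals reached below 0. St18, a zinc finger transcription factor, was at 1176 CPM (927 to 1472) against 595 CPM (540 to 654), a log2 ratio of 0.98 (0.61 to 1.34). St18 had a depth-matched ratio of 1.06 (0.63 to 1.47) and UMIs in 34.5% (24.6 to 45.4) against 13.6% (11.7 to 15.7) of thinned cells.

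Terf1, which binds telomeric repeats, was at 1424 CPM against 847 CPM (log2 ratio 0.75, 0.42 to 1.07). Ercc5, the endonuclease of nucleotide excision repair, was at 650 CPM against 408 CPM (0.67, 0.17 to 1.14), and Xrcc5, the larger Ku subunit of end joining, at 511 CPM against 333 CPM (0.62, 0.05 to 1.15). The Xrcc5 ratio rested on 33 UMIs and its depth-matched interval, -0.10 to 1.11, reached below 0. Bard1, the partner of BRCA1, was within 1.5-fold at 0.21 (-0.31 to 0.68). Of the 4 p53-linked and DNA repair genes compared, 2 (Mdm4 and Ercc5) were past 1.5-fold and all 4 had ratios above 0, with a median of 0.47 against -0.0045 over all genes, of which 4.29% were past 1.5-fold higher and 148 of 303 above 0. Steap3 and Bok, with 1 and 7 UMIs, were under the minimum. The list was chosen with earlier results known and does not hold every repair gene compared. Xrcc5 is not on it, nor are Rev1 at 0.23, Smarcal1 at 0.09 and Zranb3 at -0.09.

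Of the 4 death regulators compared, 2 (Cflar and Mdm4) were past 1.5-fold and all 4 were above 0, with a median of 0.62, where 4.29% of all 303 genes compared were past 1.5-fold higher and 148 were above 0. Bok, a relative of Bcl2 on the same list, had 7 UMIs and was under the minimum. Cflar, which blocks caspase-8 activation, was at 1347 CPM against 857 CPM (0.65, 0.31 to 0.98), but after thinning was found in 25.3% (16.6 to 35.7) against 20.99% (18.7 to 23.4) of cells, with a ratio of 0.37. Bcl2, the inhibitor of mitochondrial cell death, stood just within the limit at 1579 CPM against 1055 CPM (0.58, 0.27 to 0.88), and Casp8, the initiator caspase, was at 418 CPM against 347 CPM (0.27, -0.36 to 0.85). Mdm4, Casp8 and Bok are members of both of these lists, so the lists are not separate evidence.

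Nucks1, a chromatin-associated phosphoprotein that takes part in DNA repair and transcription, had the narrowest interval of the 19 genes past 1.5-fold. With 934 and 6790 UMIs it was at 14456 CPM (13543 to 15413) against 9527 CPM (9302 to 9756), a log2 ratio of 0.60 (0.50 to 0.70), and 88 of the 89 cells held it. Against depth-matched cells it was at 0.50 (0.39 to 0.61), under 1.5-fold. Hjurp, the chaperone that loads the centromeric histone CENP-A, was within 1.5-fold. It was at 8791 CPM against 6059 CPM (0.54, 0.41 to 0.66), a narrow counting interval. In cells with under 500, 500 to under 800 and 800 or more UMIs its ratio was 0.35 (-0.09 to 0.76), 0.42 (0.20 to 0.62) and 0.63 (0.44 to 0.83).

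The other genes past 1.5-fold were of mixed function. Agap1, a GTPase-activating protein for Arf1, was at 3498 CPM against 2256 CPM (0.63, 0.43 to 0.83), with a depth-matched value of 0.62. Mybl1, a transcription factor of the Myb family, was at 913 CPM against 539 CPM (0.76, 0.34 to 1.16), and the matrix protein Fn1 at 898 CPM against 539 CPM (0.74, 0.31 to 1.14). After thinning Fn1 was found in 16.1% (9.09 to 25.5) against 12.2% (10.4 to 14.2) of cells, with a ratio of 0.35, and it was at 0.21 at a limit of 5 Btg2 UMIs. The intervals of the thinned shares also overlapped for Mybl1, Terf1, Ercc5, Plekha6 and Nucks1. Plekha6, a pleckstrin homology domain protein, was at 511 CPM against 326 CPM (0.65, 0.08 to 1.18), but its depth-matched value was 0.40 (-0.22 to 0.98). Agap1, Xrcc5 and Nucks1 lie outside the 10 highest ratios, and Agap1 and Xrcc5, which belong to no list, are named because their values passed the limit.

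**Figure D3:**
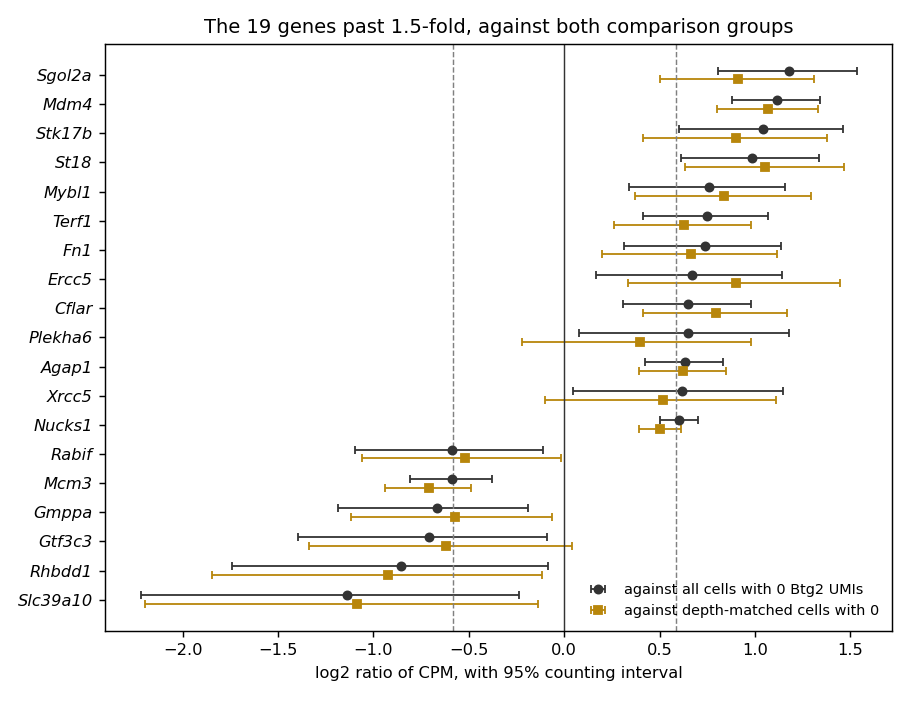
Log2 ratios of CPM with 95% counting intervals (x axis) for the 19 genes past 1.5-fold (y axis), with circles against all 1358 cells without Btg2 and squares against the 356 depth-matched cells; dashed lines mark 1.5-fold. The depth-matched values kept their sign for each of the 19 genes, and the intervals of Plekha6, Xrcc5 and Gtf3c3 then crossed 0.

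Of the 6 genes past 1.5-fold lower, Mcm3 had the most UMIs. It was at 2972 CPM (2566 to 3423), from 192 UMIs, against 4474 CPM (4320 to 4632), from 3189, a log2 ratio of -0.59 (-0.81 to -0.38) and a depth-matched value of -0.71 (-0.94 to -0.49). It lay at the limit, and was within 1.5-fold after thinning (-0.49), at limits of 2, 4 and 5 Btg2 UMIs (-0.36, -0.55 and -0.38), without the 5% of cells with the highest totals (-0.57), without cells under 300 UMIs (-0.58) and with the 3 most abundant genes left out of the totals (-0.57). Mcm6, another subunit of the same helicase, was within 1.5-fold at 3157 CPM against 4431 CPM (-0.49, -0.70 to -0.28). After thinning, 54.0% (43.0 to 64.8) of the cells held a Mcm3 UMI against 65.8% (63.0 to 68.5), and 58.6% (47.6 to 69.1) against 65.4% (62.6 to 68.2) held one of Mcm6, intervals that overlap.

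The other lower genes were scarce. Slc39a10, a zinc importer, had 10 UMIs in 8 cells, or 155 CPM (74.2 to 285) against 341 CPM (299 to 387), a log2 ratio of -1.14 (-2.22 to -0.24). After thinning it was found in 4.60% (1.27 to 11.4) against 10.2% (8.56 to 12.1) of cells, intervals that overlap. In cells with under 500, 500 to under 800 and 800 or more UMIs its intervals all spanned 0 (-3.80 to 1.16, -4.72 to 0.24 and -2.55 to 0.22). Rhbdd1, a rhomboid protease, had 14 UMIs (-0.85, -1.74 to -0.08), and Gtf3c3, a subunit of the polymerase III factor TFIIIC, had 22 (-0.71, -1.40 to -0.09). Cells with 0, 1, 2, 3 and 4 or more Btg2 UMIs had Rhbdd1 at 391, 348, 483, 62.7 and 367 CPM, low only in the 48 cells with 3, where 2 UMIs were counted. Its ratio was -0.06 at a limit of 2 Btg2 UMIs and -0.09 at a limit of 4. Gtf3c3 was within 1.5-fold at limits of 2, 4 and 5 (-0.43, -0.48 and -0.15). Gmppa, which regulates GDP-mannose synthesis, was at -0.67 (-1.19 to -0.19), and Rabif, a partner of Rab GTPases, at -0.59 (-1.10 to -0.11). Against depth-matched cells both were within 1.5-fold, Gmppa at -0.57 and Rabif at -0.52. Just within the limit, the secreted insulin-like growth factor binding protein Igfbp5 was at 9673 CPM against 14446 CPM. Its log2 ratio was -0.58 (-0.70 to -0.46) from 625 and 10296 UMIs, but it varied with depth. In cells with under 500, 500 to under 800 and 800 or more UMIs it was -0.68 (-1.03 to -0.36), -0.27 (-0.46 to -0.09) and -0.77 (-0.96 to -0.60). After thinning, Igfbp5 was found in 86.2% (77.1 to 92.7) against 87.4% (85.3 to 89.2) of cells.

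The replication and mitosis genes did not move as one group. Of 12 analysed, 10 were compared. Sgol2a and Nucks1 were past 1.5-fold higher, Mcm3 was past 1.5-fold lower, and the remaining 7 were within it, against 4.29% higher and 1.98% lower over all 303 genes. The median log2 ratio of the 10 was 0.18. Prim2, the large primase subunit, was at 0.09 (-0.25 to 0.41), Orc2, of the origin recognition complex, at -0.11 (-0.48 to 0.23), and Ube2t, a ubiquitin-conjugating enzyme of the Fanconi anaemia pathway, at 0.39 (0.16 to 0.61). The phase lists used in the study are short here and are read against the same 4.29% and 1.98%. The 5 compared genes of G2/M had a median of 0.60, with Stk17b, Cflar and Nucks1 past 1.5-fold higher, and the 5 of M had a median of 0.03, with Sgol2a and Cflar past it. The 3 compared genes of G1/S had a median of -0.21 and none past it, and the 4 of M/G1 had -0.03, with Nucks1 higher and Slc39a10 lower. Of the S list only Ube2t and Nab1 were compared, and both lay within 1.5-fold. The lists share Cflar and Nucks1 and hold few of their genes on this chromosome, so no cell was given a phase.

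Of 4 genes of CCR4-NOT and RNA decay compared, none was past 1.5-fold. The CCR4-NOT subunit Rqcd1 was at 0.06 (-0.32 to 0.42), Cnot11 at -0.47 (-1.03 to 0.05), the exonuclease Dis3l2 at -0.45 (-1.18 to 0.20) and the cap-binding protein Eif4e2 at 0.04 (-0.19 to 0.26). Of 14 early response and signal-linked genes compared, only Stk17b passed the limit, where 4.29% of all 303 genes were past it on the higher side, and their median was 0.05. Another 8 were under the minimum, among them Per2, with 31 UMIs, at 0.80 (0.21 to 1.35). Irs1 and Inpp5d, also under it with 4 and 1 UMIs, had ratios below 0. Creb1, the factor that binds the cyclic AMP response element, was at 0.00 (-0.36 to 0.35), the ternary complex factor Elk4 at 0.13 (-0.27 to 0.51), and Nab1, a corepressor of Egr factors, at 0.50 (0.10 to 0.88).

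None of the 10 ribosomal protein and translation genes passed 1.5-fold (median 0.03), nor did any of the 6 secretory granule and hormone genes (0.15), the 6 splicing and chromatin genes (-0.09), the 5 COP9, cullin and proteasome genes (-0.01) or the 11 genes of metabolism (-0.02). Within the secretory group, Ecel1, a membrane endopeptidase, was at 0.33 (0.12 to 0.55) and Inhbb, the inhibin beta B subunit, at -0.28 (-0.49 to -0.07). Of 10 respiratory chain and mitochondrial ribosome genes, 9 had ratios below 0 (median -0.18), where 155 of all 303 genes did, with Cox5b at -0.19 (-0.26 to -0.12) and Mrpl30 at -0.28 (-0.43 to -0.14), and none was past 1.5-fold. The 4 chaperone genes compared were also below 0 (median -0.29), against the same 155 of 303, with the mitochondrial chaperonin pair Hspd1 at -0.36 (-0.55 to -0.17) and Hspe1 at -0.20 (-0.33 to -0.08). The 7 matrix and adhesion genes had a median of 0.00, with Fn1 alone past the limit, where 4.29% of all 303 genes were past it higher and 1.98% lower.

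Several of the differences were graded across cells with fewer Btg2 UMIs, though these classes were not matched on depth. Cells with 0, 1, 2, 3 and 4 or more had medians of 509, 612.5, 686, 617 and 824 UMIs of other genes. In cells with 0, 1, 2, 3 and 4 or more Btg2 UMIs, Mdm4 stood at 1323, 1560, 1689, 2257 and 3454 CPM. Sgol2a stood at 533, 835, 1070, 1097 and 1314 CPM, so that most of its difference was already present in the 139 cells with 2 UMIs, which the rule leaves out. Mdm4 instead differed most within the 89 cells. Among cells without Btg2, levels were also read in the ranges of under 500, 500 to under 800 and 800 or more UMIs. There Sgol2a was at 320, 620 and 676 CPM and Mdm4 at 1344, 1249 and 1513 CPM. The part of depth in the graded levels was not tested.

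Stk17b went from 413 through 614, 692 and 846 to 856 CPM and Nucks1 from 9527 through 11690, 12346 and 14296 to 14611 CPM, both in unbroken order. Mcm3 went the other way, at 4474, 3998, 3850, 2884 and 3057 CPM. In the same depth ranges of cells without Btg2, all 3 genes rose. Stk17b was at 363, 388 and 583 CPM, Nucks1 at 8326, 9850 and 10847 CPM and Mcm3 at 3550, 4880 and 5005 CPM. Some genes showed no order across the Btg2 classes. Ercc5 was at 408, 439, 388, 345 and 948 CPM, high only in cells with 4 or more Btg2 UMIs, and St18 was at 595, 788, 566, 1285 and 1070 CPM.

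**Figure D4:**
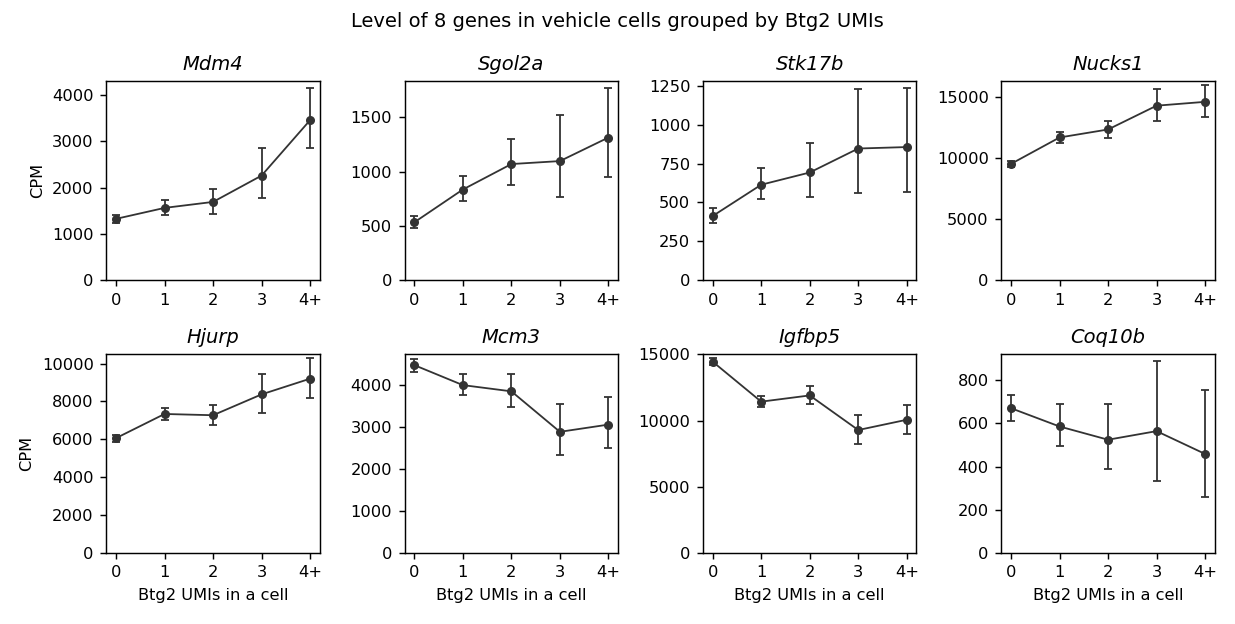
Level in CPM with exact Poisson 95% intervals (y axes, from 0) of 8 genes in vehicle cells with 0, 1, 2, 3 or 4 and more Btg2 UMIs (x axes; 1358, 406, 139, 48 and 41 cells). Mdm4 climbs to 3454 CPM and Sgol2a to 1314 CPM in the last class, while Mcm3 and Igfbp5 lie lower in the cells with 3 or more than in those with 0.

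The same counts can be read from the other gene over all 1992 vehicle cells, which adds no separate evidence, since these genes are named for their difference between cells chosen by Btg2. Cells with 0, 1 and 2 or more Mdm4 UMIs had Btg2 at 758, 902 and 1287 CPM, and 2.44%, 4.21% and 9.97% of them reached 3 Btg2 UMIs. For Sgol2a the Btg2 level was 796, 1113 and 1448 CPM and the shares 2.88%, 8.10% and 11.2%. Cells with more of either gene were deeper (median 489.5 to 658 UMIs across the Mdm4 classes and 504 to 716 across those of Sgol2a), which enters the shares. The classes were not matched on depth, and CPM differed with depth among cells without Btg2, where Sgol2a was at 320, 620 and 676 CPM in cells with under 500, 500 to under 800 and 800 or more UMIs. Cells with 0, 1 to 3 and 4 or more Mcm3 UMIs had Btg2 at 1200, 904 and 826 CPM, the reverse order, and for the same classes of Hjurp it was at 775, 673 and 1155 CPM, in no order.

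Mdm4 was higher in cells both with and without a Sgol2a UMI. In cells with no Sgol2a UMI, 43 of the 89 and 1083 of the 1358, the log2 ratio of Mdm4 was 0.90 (0.52 to 1.26), and in cells with a Sgol2a UMI, 46 and 275, it was 1.07 (0.75 to 1.39). Hjurp and Nucks1 differed more where Sgol2a was not counted, with 0.69 (0.50 to 0.87) and 0.69 (0.54 to 0.84), than where it was, with 0.15 (-0.03 to 0.33) and 0.24 (0.10 to 0.38). Ercc5 showed the opposite, at -0.30 (-1.38 to 0.61) without and 1.20 (0.55 to 1.82) with Sgol2a. The difference between these strata was not tested. The strata divide the same cells that gave the ratios, so they add no separate evidence.

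Depth was also held by dividing the cells into 3 ranges of UMIs. In cells with under 500 (18 and 644 cells), 500 to under 800 (36 and 591) and 800 or more (35 and 123), the log2 ratio of Mdm4 was 1.33, 1.45 and 0.66, and that of Sgol2a was 1.51, 1.00 and 0.89. All 6 counting intervals excluded 0. These ranges divide the same cells that gave the ratios for which the genes were named, so they add no separate evidence. Mcm3 was at -1.31, -0.48 and -0.75, with all 3 intervals below 0. Ercc5 was at -0.76 (-3.83 to 1.13), 0.54 and 1.40 (0.60 to 2.18), so its ratio was above 0 in the 2 deeper ranges and below it in the shallow one.

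Genes raised by GnRH in this experiment had a like summed level in the 89 vehicle cells and in those without Btg2. The list was drawn from the ratio of these same libraries, and so is not independent of them. Its 11 genes summed to 4891 CPM (4366 to 5461) in the 89 cells and to 4817 CPM (4657 to 4981) in vehicle cells without Btg2, against 11672 CPM (11459 to 11889) in the 1627 GnRH cells with 3 or more Btg2 UMIs. None of the 5 compared in the vehicle cells was past 1.5-fold, where 4.29% of all 303 were past it higher and 1.98% lower. The median of the 5 was -0.39. The other 6 were under the minimum of 20 expected UMIs. Of these, 2810459M11Rik, with 24 UMIs, was at 0.91 (0.22 to 1.54) and Fhl2, with 15, at 0.44 (-0.44 to 1.22). Bok had 7 UMIs, Neurl3 and Gm7967 had 2 each, all with ratios above 0 and intervals that spanned it, and Gm28321 had none.

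Coq10b, a coenzyme Q binding protein of mitochondria, was at 511 CPM against 671 CPM (33 and 478 UMIs), a log2 ratio of -0.39 (-0.95 to 0.12), and after thinning was found in 18.4% (10.9 to 28.1) and 17.7% (15.5 to 19.97) of cells. Ptprn, a protein of secretory granules, was at 929 CPM against 770 CPM (0.27, -0.14 to 0.66), and Ppp1r15b, a regulator of eIF2α phosphatase, at 1470 CPM against 1179 CPM (0.32, -0.003 to 0.63). The co-chaperone Bag2 was at 960 CPM against 1386 CPM (-0.53, -0.92 to -0.16). In the 4 vehicle cells with 8 or more Btg2 UMIs the 11 genes had 17 UMIs, or 7535 CPM (4390 to 12065), above the 4817 CPM of cells without Btg2 but with an interval that takes it in, and Coq10b had 2 UMIs, or 887 CPM against 671 CPM.

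The 89 cells were also set beside GnRH cells of the same range of Btg2 counts, a choice made after the values were seen. The genes shown were picked for their ratios in these same libraries, so their directions are a description. The GnRH library had 688 cells with 3 to 14 Btg2 UMIs, the range that the 89 vehicle cells span, though their counts were higher within it (mean 7.88 against 4.10), Btg2 was at 14304 against 5649 CPM, and their depth was lower (median 532 against 657). Under vehicle this range held the cells with the most Btg2. Under GnRH it left out the cells with the highest counts, as that library had a mean of 17.7 and a maximum of 128. Coq10b was at 2059 CPM in the 688 GnRH cells, and at 3287 CPM in all 1627 with 3 or more. In the 89 vehicle cells it was at 511 CPM, a log2 difference from the 688 of 2.01 (1.51 to 2.56). Fhl2, a LIM domain cofactor, was at 615 CPM against 232 CPM (1.41, 0.65 to 2.27). Mdm4 was at 1314 CPM in the GnRH cells against 2863 CPM in the vehicle cells (-1.12, -1.37 to -0.87), and at 1323 CPM in vehicle cells without Btg2. Sgol2a was at 699 against 1207 CPM (-0.79, -1.16 to -0.40), Nucks1 at 10435 against 14456 CPM (-0.47, -0.57 to -0.37) and Mcm3 at 4336 against 2972 CPM (0.55, 0.33 to 0.77). In the narrower range of 5 to 14 Btg2 UMIs, with 523 GnRH and 20 vehicle cells and Btg2 means of 9.29 and 6.85, Coq10b differed by 1.94 (1.01 to 3.08), Mdm4 by -1.09 (-1.54 to -0.62), Sgol2a by -0.95 (-1.59 to -0.25) and Nucks1 by -0.44 (-0.63 to -0.24). Mcm3 was then at 0.36 (-0.03 to 0.78), an interval that reaches below 0, and the vehicle level of Fhl2 rested on 1 UMI. Mdm4 also differed between the 53 GnRH and 1358 vehicle cells without Btg2, at 588 against 1323 CPM (-1.17, -2.18 to -0.32), from 11 and 943 UMIs. In those cells Sgol2a was at 0.00 (-1.07 to 0.90), Nucks1 at -0.24 (-0.48 to -0.006) and Mcm3 at 0.12 (-0.20 to 0.42). Coq10b was at 0.81 (0.12 to 1.43) and Fhl2 at 0.91 (-0.57 to 2.07). The 2 libraries differ in treatment and in being separate captures, which cannot be told apart.

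**Figure D5:**
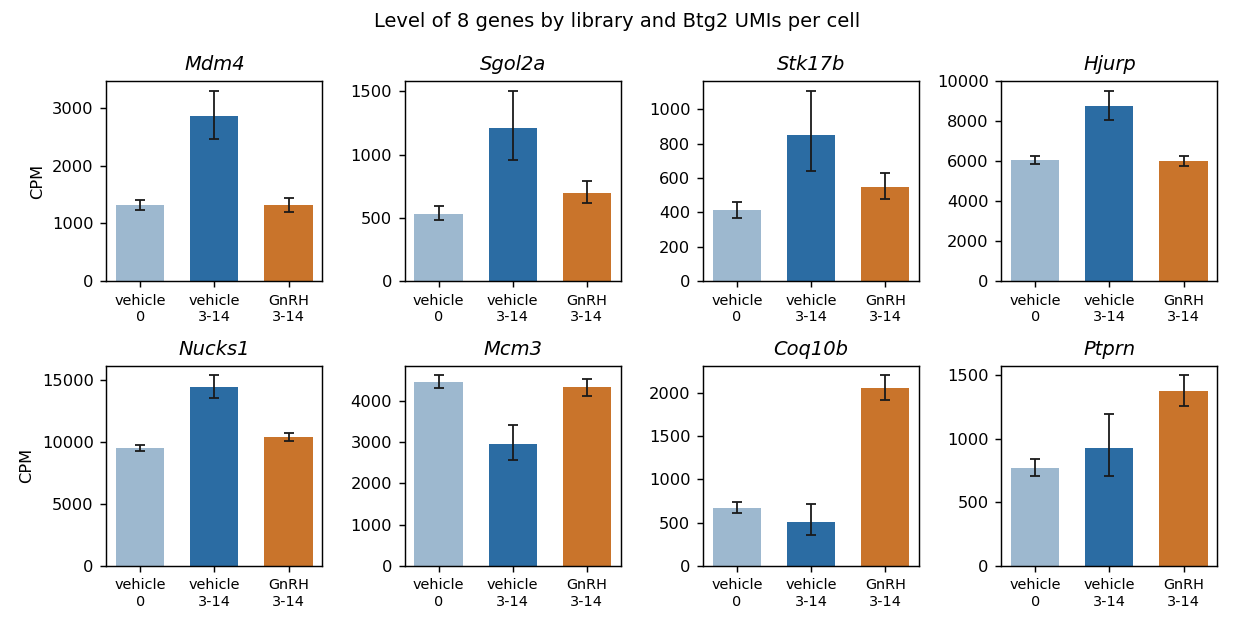
Level in CPM with exact Poisson 95% intervals (y axes, from 0) of 8 genes in 1358 vehicle cells without Btg2, 89 vehicle cells with 3 to 14 Btg2 UMIs and 688 GnRH cells with 3 to 14 (x axes). Mdm4 is at 1323, 2863 and 1314 CPM and Coq10b at 671, 511 and 2059 CPM in these groups. GnRH cells without Btg2, in which Mdm4 was at 588 CPM, are not drawn.

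The same limit was applied to GnRH cells, which the rule did not use. There only 53 cells had no Btg2, and they were shallow (median 396 against 565 UMIs in the 1627 cells with 3 or more). Of the 13 genes higher in the vehicle comparison, 12 had a ratio above 0 in GnRH cells and 5 were past 1.5-fold, and of the 6 lower genes 3 had a ratio below 0 and none was past 1.5-fold lower. Over all 303 genes of the vehicle comparison, 55.4% were above 0 in GnRH cells and 44.6% below, 16.8% were past 1.5-fold higher and 5.28% past it lower. Mdm4 had a log2 ratio of 1.21 (0.37 to 2.22) and Terf1 of 1.16 (0.11 to 2.48), whereas Sgol2a, at 0.22 (-0.67 to 1.29), could not be told from 0 with 10 UMIs in the 53 cells. Hjurp was at 0.71 (0.37 to 1.08) and Igfbp5 at -0.60 (-0.75 to -0.44), close to their vehicle values. Coq10b was at 1.48 (0.88 to 2.16).

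GnRH cells were also ranked by the share of their UMIs that Btg2 took, again a choice made after the values were seen. The 473 cells with the highest and the 473 with the lowest share were compared, with medians of 516 and 503 UMIs. Coq10b was higher in the former by 1.80 (1.63 to 1.97) on the log2 scale and Ptprn by 1.22 (1.03 to 1.42). Mdm4 was at 0.32 (0.09 to 0.54), while Sgol2a was at -0.55 (-0.90 to -0.21), Stk17b at -0.62 (-1.02 to -0.22) and Nucks1 at -0.34 (-0.42 to -0.26). Of the 13 genes higher in the vehicle comparison, 4 were above 0 and none was past 1.5-fold higher, where 51.2% of all 303 genes were above 0 and 4.95% past 1.5-fold higher. Of the 6 lower genes, 4 were below 0 and none was past 1.5-fold lower, where 48.8% of all 303 were below 0 and 1.98% past it.

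Of 15 compared genes that start within 1000 kb of Btg2, 1 was higher (Plekha6) and 1 lower (Rabif), against 13 and 6 of all 303, and their median log2 ratio was 0.0015. Mdm4 lay just past this distance, at 1116 kb from Btg2, and Nucks1 at 2165 kb. The median genomic span of the 13 higher genes was 47.4 kb (25.8 to 443 kb), against 30.2 kb for the lower genes and 31.3 kb for all 303. In 3 sets of 101 genes each, ordered from short to long spans, the median log2 ratio was -0.08, -0.03 and 0.10, and 0, 7 and 6 genes were higher. Gene span was not matched in these comparisons, and its part in the result was not tested.

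Of the 13 higher genes, 8 had a RefSeq promoter window, as did all 6 of the lower genes. The windows of Mdm4 and Plekha6 lie inside the annotated spans of these genes, and that of Slc39a10 lies upstream of its span. None of these 14 windows held the full TGACGTCA element of Btg2. The core TGACG was in 2 of the 8 and 2 of the 6 (21.02% of all windows), the letters TTTGAA of the cell cycle homology region in 3 (Nucks1, Ercc5 and Stk17b) and 2 (18.1% of all windows), and CCAAT in 4 and 3 (37.9%), each on either strand. The Btg2 window held CCAAT 2 times and no TTTGAA.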

How the data were processed

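Droplet 3′ single-cell libraries of vehicle- and GnRH-treated LβT2 cells (1 each) were used. The count table that the authors deposited gives raw, unscaled UMI counts for each gene in each called cell. The submitters' processing notes name Cell Ranger 1.3 and mm10. The table held 1068 complete genes of 27998 listed, an incomplete last row was left out, and no sample column was unused. Totals of these genes were 90 to 1645 UMIs per vehicle cell.

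UMIs were summed per gene over cells and scaled to CPM of the genes other than Btg2. Intervals (95%) are exact Poisson for sums, exact conditional binomial for ratios and Clopper-Pearson for shares. They cover counting error only. Genes with at least 20 expected UMIs in the 89 cells were compared, and called by size alone at 1.5-fold. Depth-matched groups took 4 cells without Btg2 per cell, nearest in total. Named genes were the 10 highest and 10 lowest ratios and members of gene lists, and members and lists were chosen with earlier results of these data known. No doublet caller was run, and cells with the highest 5% of totals were left out as an alternative. Other alternatives were TMM scaling (edgeR 4.0.16, R 4.3.3), median-of-ratios scaling, the mean CPM of single cells, thinning, other Btg2 limits and other count minimums. Gene positions came from GENCODE M21 and promoters from RefSeq. Calculations used Python 3.11.15, numpy 2.4.6, scipy 1.17.1 and pandas 2.3.3, and were tested on simulated data.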

Additional observations from a re-analysis of the deposited data

Results flagged for a closer look

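Of the named genes, 3 had ratios of opposite sign in the vehicle and the GnRH library under the same limit of 3 Btg2 UMIs against 0, with counting intervals that did not overlap and at least 1.5-fold in 1 library. The difference between the libraries was not tested, because each is a single library. Coq10b had a log2 ratio of -0.39 (-0.95 to 0.12) in vehicle cells and 1.48 (0.88 to 2.16) in GnRH cells. Tns1, which encodes the focal adhesion protein tensin, was at -0.08 (-0.32 to 0.14) and 1.14 (0.54 to 1.82). Akr1cl, of the aldo-keto reductase family, was at 0.42 (0.02 to 0.80) and -0.999 (-1.57 to -0.36), where the GnRH value rests on 25 UMIs in the 53 cells without Btg2. Between the 473 GnRH cells with the highest and the 473 with the lowest Btg2 share of UMIs, Akr1cl was instead at 1.65 (271 against 82 UMIs), the sign of the vehicle value.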

How the results depend on the processing

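Against 13 higher and 6 lower genes, thinning to 300 UMIs gave 27 and 28. A limit of 2 or more Btg2 UMIs gave 4 and 1, a limit of 4 gave 25 and 12, and a limit of 5 gave 33 and 32. A minimum of 10 expected UMIs gave 25 and 12, a minimum of 50 gave 5 and 3, and no minimum beyond 1 UMI in each group gave 79 and 28. Depth matching gave 10 lower genes, and cells with the highest Btg2 share of their UMIs, an alternative added after seeing the data, gave 13. That group shared 54 of its 89 cells with the one described and was shallower (median 470 UMIs). The median total of the cells with Btg2 moved to 824 UMIs at a limit of 4 and to 812.5 at 5, and that of cells without Btg2 to 540 when cells under 300 UMIs were left out. The cause of these moves was not tested, apart from the fewer or more genes or cells that each minimum or limit admits. None of the 19 genes past 1.5-fold changed sign under an alternative that was run. Mdm4 ranged from 0.71 to 1.38, Sgol2a from 0.91 to 1.37, Stk17b from 0.67 to 1.36, Nucks1 from 0.47 to 0.66 and Mcm3 from -0.71 to -0.36. TMM and median-of-ratios scaling each left Nucks1 and Xrcc5 just under 1.5-fold and brought Elf3, Igfbp5 and Unc50 past it. Without the 4 cells with 8 or more Btg2 UMIs, also added after seeing the data, 14 and 6 genes were past it. Leaving out the 3 most abundant genes from the totals gave 14 and 4. Barcodes shared by the libraries could not be counted, because the cell columns carry numbers and no barcodes, so that alternative was not run. No paired analysis was possible because a single library stands for each treatment. At 20 expected UMIs the counting interval of a ratio is wider than 1.5-fold, which limits what can be said of the scarce genes.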
